A study of Mus musculus with 15 samples.

Results

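Lungs of mice that had aspirated saline were compared with lungs of mice that had received nothing. Both groups served as controls in a study of rod-like carbon nanotubes (rCNT), which are stiff fibre-shaped particles, and they supplied 8 of its 15 samples. All animals were female C57BL/6 mice, an inbred laboratory strain, aged 7 to 8 weeks. The 4 PBS samples came from mice that were given 50 µl of phosphate-buffered saline (PBS) by oropharyngeal aspiration on 4 days, in which liquid placed behind the tongue is inhaled into the airways. The 4 untreated samples came from mice kept as controls for inhalation of an rCNT aerosol. Lung tissue was collected 24 h after the last exposure, or at the same time point in untreated mice. The remaining samples were 4 with aspirated rCNT, at 10 µg in the same volume of PBS, and 3 with inhaled rCNT, given for 4 h per day, and they were used here to estimate the spread and to show levels side by side.

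The aspirated liquid carries no particles, so this comparison shows how far one kind of control lung differed from the other. The lung keeps its airways moist with a mucus layer made by goblet and club cells and moved by ciliated cells. Its air sacs are lined with flat type 1 cells and with surfactant-making type 2 cells, and alveolar macrophages clear what reaches them. A dissected lung can also carry tissue from the heart, the thoracic fat, the pleural surface, a sheet of mesothelial cells, and the blood left in its vessels. In such bulk tissue, a change in the number of cells of one type and a change in RNA per cell cannot be told apart.

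The kind of control went together with how the RNA was processed. All 4 PBS samples, with the 4 aspirated rCNT samples, lay on 1 slide that was scanned in a separate session. The untreated samples lay on the other 2 slides (replicates 1 to 3 on slide 2 and replicate 4 on slide 3), with the inhaled rCNT samples. Slide, scan session and kind of control therefore cannot be told apart. The array names deposited for the untreated samples also contain the word pool and those of the PBS samples do not, while the labels do not say how many mice made up a sample, so p-values reflect only how these samples varied, and that variation may be technical. Untreated replicate 1 carries a title that names a PBS aspiration, whereas its source name and its exposure label name an untreated mouse. It was kept as untreated, and list counts without it are given in brief below.

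Each sample was 1 colour channel of a microarray, and the quantity reported is the normalised log2 intensity of its own channel, on which a difference of 1 is a doubling. Each group held 2 Cy3 and 2 Cy5 samples. The median spot was brighter in the PBS samples, at 112.5 and 116 units in Cy3 and 145 and 147 in Cy5, than in the untreated samples, at 75 and 56.5 units in Cy3 and 115 and 109 in Cy5. Spike-in RNAs, added to the labelling reaction in set amounts and read by 10 probes, differed after normalisation by 0.738 to 1.9 in Cy3 (PBS higher) and by -0.807 to -0.377 in Cy5 (PBS lower). Their part in the results was not tested. Across the genes tested, PBS samples correlated with each other at 0.9952 to 0.998, untreated samples at 0.994 to 0.9967, and samples of different groups at 0.9765 to 0.9818. The median gene had a standard deviation of 0.108 among PBS samples and 0.115 among untreated samples.

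The 2 kinds of control lung differed broadly, mostly by small amounts. Of 25251 genes and transcripts tested, 15007 (59.4%) passed an adjusted p of 0.05 in limma's moderated test with Benjamini-Hochberg adjustment, 6647 of them higher (26.3%) and 8360 lower (33.1%) in the PBS samples. In 12440 (49.3%) the 4 PBS values did not overlap the 4 untreated values. Differences of 2-fold or more were fewer (913, or 3.62%) and mostly upward, with 700 genes higher (2.77%) and 213 lower (0.844%). The median difference over all tested was -0.04. Counts of list members given below are to be read beside the shares of all genes tested, 26.3% higher and 33.1% lower. Under median centring 59.1% of the calls were higher and under centring on the 75th percentile 26.9%, against 44.3% here, and the latter moved the median of all genes to -0.204. Small shifts of a whole list are therefore to be read against that range: the balance of higher and lower members turned with 1 of these scalings in the lists for glucocorticoid response, immediate early genes, interferon response, xenobiotic metabolism, CXC chemokines, cytokines, acute phase, club cells, type 1 cells, type 2 cells, ion transport, neutrophils, alveolar macrophages, dendritic cells, T cells, p53 targets and oxidative phosphorylation. The 15838 tested genes with a symbol held 411 of the rises of 2-fold or more and 54 of the falls.

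RNAs that stay in the nucleus, and the proteins that choose splice sites, were mostly higher after PBS. Neat1 is the RNA scaffold of paraspeckles, Malat1 an abundant RNA of nuclear speckles, and Xist the RNA that coats and silences the inactive X chromosome of female cells. Rnu1b6, Rnu2-10 and Rnu3b1 are small structural RNAs, of which those named U1 and U2 act in the spliceosome and U3 in the nucleolus. Of 17 measured nuclear noncoding RNAs, 14 were higher and 1 lower in the PBS samples, with a median difference of 0.82 and 8 of them at least 2-fold higher. Like the other lists, this one was chosen with earlier results of these data known, so its counts are a description only. Rnu1b6 and Rnu2-10 count both in this list and in the next. All 6 measured genes named as small nuclear or nucleolar RNAs were higher, with a median of 1.60, although Rnu12, named after its values were seen, rose by 0.26 with overlap and did not pass without PBS replicate 2 (0.21) or untreated replicate 2 (0.17).

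Neat1 had the largest difference of any gene with a symbol. Its level was 15.87, 15.44, 15.94 and 15.38 in PBS replicates 1 to 4, against 11.91, 11.44, 11.57 and 11.32 in untreated replicates 1 to 4. The groups were far apart, with a difference of 4.09 ± 0.12 (standard error, n = 4 and 4), a 17.1-fold rise, and an adjusted p of 2.2e-12. Malat1 read 11.26, 11.43, 11.23 and 11.72 after PBS and 9.34, 9.0, 9.73 and 8.86 untreated, a rise of 2.18 ± 0.15 (adjusted p = 1.1e-08). For Xist the PBS values were 10.25, 10.54, 10.15 and 10.29 and the untreated values 7.76, 7.75, 7.14 and 7.38, a rise of 2.79 ± 0.15. A second Xist probe gave 1.74. No untreated sample reached the lowest PBS sample in any of these 3 RNAs.

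The small nuclear RNAs followed the same order of groups. Rnu1b6 lay at 14.61, 14.63, 14.77 and 14.47 in the PBS samples and at 11.60, 11.42, 11.49 and 11.42 in the untreated samples, a rise of 3.14 ± 0.09. Rnu3b1 lay at 12.14, 12.19, 12.17 and 12.14 after PBS and at 8.62, 9.45, 10.03 and 9.52 untreated, a rise of 2.76 ± 0.21. Rnu2-10 rose by 2.33 ± 0.10.

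For these RNAs the untreated samples were the ones that stood apart from the rest of the series. The 3 inhaled rCNT samples, which shared slides with the untreated samples, averaged 15.65 for Neat1, 11.69 for Malat1, 10.33 for Xist, 15.43 for Rnu1b6 and 13.76 for Rnu3b1. The 4 aspirated rCNT samples, which shared a slide with the PBS samples, averaged 15.02, 11.35, 10.24, 14.14 and 12.50 in the same order. Averaged over the whole list, nuclear noncoding RNAs read 10.60 to 10.69 in the PBS samples, 9.26 to 9.35 in the untreated samples, 11.02 to 11.14 with inhaled rCNT and 10.60 to 10.67 with aspirated rCNT. The inhaled rCNT samples of the same 2 slides did not share the low level, but they also differed from the untreated samples by exposure. The cause of the low level was not tested.

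**Figure D1:**
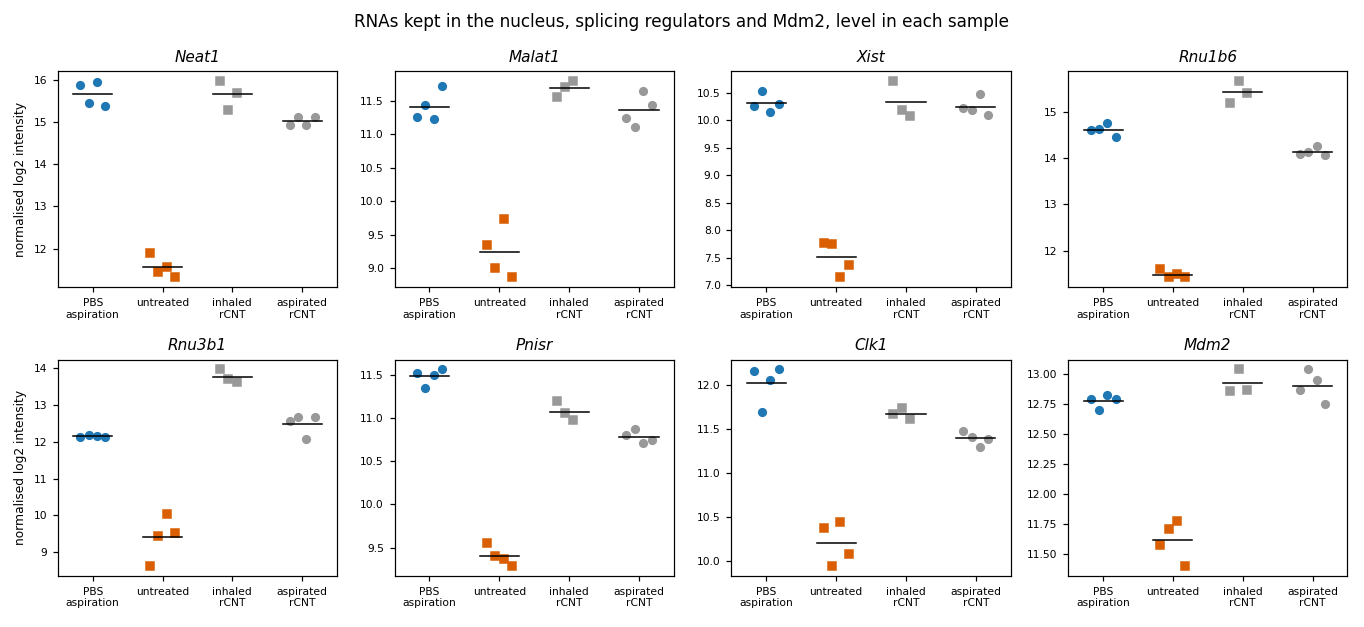
Normalised log2 intensity (y axis) of Neat1, Malat1, Xist, Rnu1b6, Rnu3b1, Pnisr, Clk1 and Mdm2 in each of the 15 samples, by group (x axis). Circles are samples of slide 1, squares samples of slides 2 and 3, and bars are group means. In each of the 8 panels the 4 untreated samples lie below all PBS samples and below all samples with inhaled or aspirated rCNT.

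Of 34 splicing kinases and serine- and arginine-rich (SR) proteins, 28 were higher and 1 lower after PBS, with a median of 0.81 and 14 at least 2-fold higher. These proteins bind pre-messenger RNA and help to define exons, and the Clk kinases phosphorylate them. Pnisr, an SR-like protein, read 11.52, 11.35, 11.50 and 11.56 after PBS and 9.56, 9.40, 9.37 and 9.28 untreated, a rise of 2.08 ± 0.07 (adjusted p = 6.8e-12). Srsf5 rose by 1.82 ± 0.10, from untreated values of 10.83 to 11.41 to PBS values of 12.69 to 13.12. Cyclin L2 (Ccnl2), which partners a splicing-linked kinase, rose by 1.68 ± 0.07, though its other probe gave 0.48, and Luc7l3, a protein associated with the U1 particle, by 1.05 ± 0.06. Clk1, the first of the Clk kinases, was named after its values were seen and rose by 1.81 ± 0.12, with no overlap. The list averaged 11.70 to 11.83 in the PBS samples and 10.89 to 11.12 in the untreated samples, while inhaled rCNT samples lay at 11.80 to 11.86. Counts for both lists barely moved when any 1 sample was left out, from 25 to 28 higher among the splicing genes and from 13 to 15 among the nuclear RNAs. Of 22 measured p53 targets, 8 were higher and 7 lower, beside 26.3% and 33.1% of all genes tested. Mdm2, the ubiquitin ligase that holds p53 in check, had the smallest p among p53 targets and rose by 1.16 ± 0.08, while the cell cycle inhibitor Cdkn1a, another p53 target, fell by 1.0 (SE 0.21) and by 0.39 on its other probe.

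Genes of the circadian clock differed in level and also in how much they varied. In the clock, Arntl and its partner Clock drive the Per and Cry genes and the output factors Dbp, Tef and Hlf through E-box sequences, Per and Cry proteins shut that drive down, and Nr1d1 represses Arntl. Of 21 measured clock genes, 10 were higher and 3 lower after PBS, with a median of 0.58. Cry2 had the smallest p, at 13.30, 13.06, 13.35 and 13 after PBS and 11.87, 11.94, 11.43 and 11.95 untreated, a rise of 1.38 ± 0.13 (adjusted p = 3.9e-07). Cry1 went the other way, from 7.33, 7.26, 7.50 and 7.16 untreated to 6.68, 6.54, 6.84 and 6.79 after PBS, and fell by 0.60 (SE 0.10). Among other named members, the kinase Csnk1d, which marks Per proteins, rose by 0.61 ± 0.07, or 0.06 on its other probe, and the nuclear receptor Rora rose by 0.58 ± 0.09.

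The E-box, CACGTG (the same on both strands), was looked for in the 300 bases around RefSeq gene starts, from 250 before to 50 after. It occurred in 2187 of 27025 genes (8.09%), in 1341 of 12559 tested genes (10.7%) and in 5 of 22 glucocorticoid response genes (22.7%). Among 17 clock genes with a promoter in the table, 5 held it (29.4%: Cry1, Tef, Ciart, Bhlhe41 and Per1). Of these 5, Tef and Ciart were higher, Cry1 was lower and 2 did not pass, of which Bhlhe41 (0.32) passed as higher with loess, with array weights and without PBS replicate 4, untreated replicate 2 or untreated replicate 4 (0.34 to 0.43). The 250 bases before the start of Cry1 and Ciart, a repressor of the clock complex, are shown because they hold the motif in genes that moved in opposite directions; capitals mark the E-box, and the sequences run 5′ to 3′ on the gene's strand in build GRCm38.p6. Cry1 covers chr10:85185055-85185304 (minus strand) and Ciart chr3:95882229-95882478 (minus strand), with 1 and 3 matches.
Cry1: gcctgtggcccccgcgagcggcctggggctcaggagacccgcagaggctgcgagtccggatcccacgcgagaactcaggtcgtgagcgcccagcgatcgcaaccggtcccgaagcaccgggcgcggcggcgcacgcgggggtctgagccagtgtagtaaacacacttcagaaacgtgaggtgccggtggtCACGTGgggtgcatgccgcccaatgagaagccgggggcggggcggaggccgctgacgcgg
Ciart: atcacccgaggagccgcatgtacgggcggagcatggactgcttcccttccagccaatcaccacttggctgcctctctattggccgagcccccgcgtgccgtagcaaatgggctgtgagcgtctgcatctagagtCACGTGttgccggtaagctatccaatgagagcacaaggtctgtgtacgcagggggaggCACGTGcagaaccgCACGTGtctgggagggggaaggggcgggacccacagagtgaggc

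The clock genes with the strongest daily swing in most tissues were spread out within the groups. Arntl read 8.35, 8.52, 7.85 and 9.75 after PBS and 10.62, 9.65, 10.67 and 9.62 untreated, a fall of -1.52 ± 0.38 (adjusted p = 0.0026) in which PBS replicate 4 overlapped untreated replicates 2 and 4. Dbp, a clock output factor, read 14.88, 14.32, 15.36 and 13.05 after PBS and 11.14, 14.88, 10.13 and 14.56 untreated. Its difference of 1.73 ± 0.83 missed the threshold (adjusted p = 0.086). Untreated replicates 1 and 3 were thus low in Dbp and high in Arntl, and replicates 2 and 4 stood near the PBS samples in Dbp.

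Other output genes had a like order within the untreated group. Nr1d1 read 9.49, 10.95, 8.73 and 10.78 untreated and 10.72, 10.51, 11.10 and 10.09 after PBS, with a difference of 0.62 ± 0.38 that did not pass (adjusted p = 0.18). Tef, named after its values were seen, read 13.78, 14.84, 13.66 and 14.73 untreated and 15.77, 15.23, 16.09 and 14.84 after PBS, a rise of 1.23 ± 0.29. Per3, also named afterwards, had the largest rise among clock genes that passed, at 1.44 ± 0.31 with no overlap, and Per1 read 0.52 ± 0.27 (adjusted p = 0.11). With only the Cy5 samples, Arntl (adjusted p = 0.082), Per3 (0.057), Tef (0.096) and Ciart (0.43) no longer passed, and Dbp passed without untreated replicate 2 (2.63, adjusted p = 0.0065) or 4 (2.33, adjusted p = 0.031). Ciart lost its call without PBS replicate 3 (0.64), untreated replicate 1 (0.56) or untreated replicate 3 (0.54), and Per1 gained one without PBS replicate 4 (0.73). Nr1d1 passed without untreated replicate 2, at 0.99. The hour at which each lung was taken is not among the labels, and its part in these differences was not tested.

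**Figure D2:**
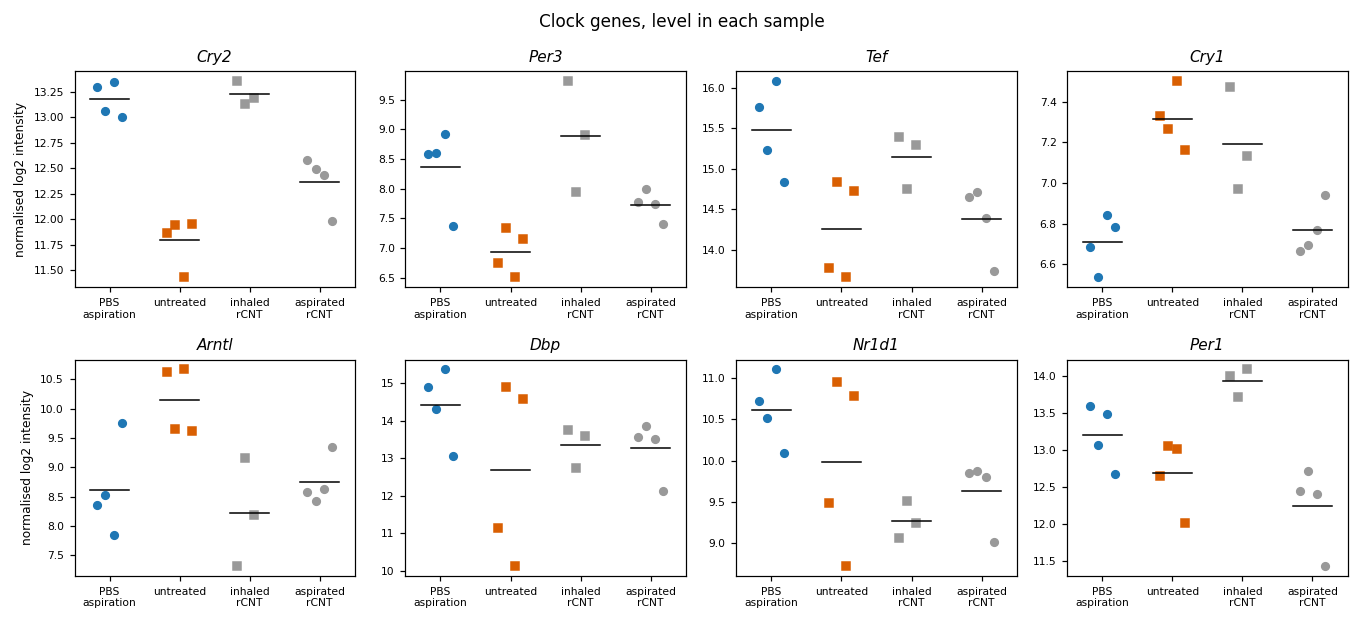
Normalised log2 intensity (y axis) of Cry2, Per3, Tef, Cry1, Arntl, Dbp, Nr1d1 and Per1 in each of the 15 samples, by group (x axis). Circles are samples of slide 1, squares samples of slides 2 and 3, and bars are group means. The untreated samples fall below all PBS samples for Cry2 and Per3, whereas for Dbp they range from 10.13 to 14.88 and overlap the PBS samples.

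Among secretory genes of the airway, several of the goblet cell list were higher after saline. Of 21 measured goblet cell and mucus genes, 11 were higher and 2 lower, with a median of 0.34 and 9 at least 2-fold higher. Pigr, the receptor that carries antibodies into secretions, read 16.04, 15.89, 15.72 and 15.96 after PBS and 13.93, 14.17, 14.10 and 14.14 untreated, a rise of 1.82 ± 0.12 (adjusted p = 8e-09), with 0.76 on its other probe. Muc5b, the main gel-forming mucin of mouse airways, read 13.71, 13.54, 14.08 and 13.94 after PBS and 12.87, 12.87, 12.40 and 12.90 untreated, a rise of 1.06 ± 0.12. The secreted airway defence protein Bpifb1 rose by 1.32 ± 0.12, the membrane mucin Muc4 by 1.19 ± 0.11 (0.59 on its other probe) and Agr2, which helps to fold mucins, by 1.17 ± 0.12. None of these 5 genes overlapped between groups, but Pigr, Bpifb1, Muc4 and Agr2 were named for the smallest p of the list. In the whole list 12 of 21 members did not overlap, beside 49.3% of all genes tested.

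Clca1, a secreted product of goblet cells named after its values were seen, had the largest rise of the list and the widest spread. It read 11.49, 9.91, 12.31 and 11.36 after PBS and 9.52, 8.90, 9.0 and 8.05 untreated, a rise of 2.40 ± 0.42 (adjusted p = 1.4e-04). The rCNT groups stood far above both, at 15.13 with inhaled and 16.70 with aspirated rCNT. Bpifa1, a relative of Bpifb1 also named afterwards, rose by 1.94 ± 0.27, and there the inhaled (12.29) and aspirated (12.33) rCNT groups lay nearer to the untreated mean of 11.81 than to the PBS mean of 13.74.

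Club cell markers did not move as a group, since 4 of 22 were higher and 2 lower, or 2 and 10 with centring on the 75th percentile. Scgb1a1, the defining club cell secretoglobin, was near the top of the scale in every sample (18.13 to 18.23 after PBS and 18.11 to 18.23 untreated) and gave a difference of 0.02 ± 0.16 (adjusted p = 0.94), although it passed with loess (0.65). Its relative Scgb3a1 was higher, at 16.36, 15.68, 16.61 and 15.51 after PBS against 14.57, 14.30, 14.39 and 13.95 untreated, a rise of 1.74 ± 0.18. Cyp2a4, a steroid-hydroxylating cytochrome P450 on the club cell list, rose by 1.40 ± 0.18. Of 27 ciliated cell genes, 13 were higher and 3 lower, with a median of 0.12. The axoneme genes Ccdc39 (0.95 ± 0.08) and Rsph4a (0.91 ± 0.10) led the rises, while Foxj1, the master regulator of motile cilia, differed by 0.09 ± 0.07 (adjusted p = 0.29) and passed with median centring (0.26).

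Alveolar lining genes showed no common direction. Type 2 and surfactant genes gave 5 higher and 2 lower of 22, and Sftpc, the surfactant protein that marks type 2 cells, ranged from 18 to 18.58 after PBS and from 17.81 to 18.58 untreated; its difference of 0.01 ± 0.13 passed with loess (0.50) and, in the other direction, with centring on the 75th percentile (-0.43). Type 1 genes gave 7 higher and 6 lower of 20, with the anchoring protein Akap5 higher by 0.93 ± 0.09, the matrix proteoglycan Spock2 higher by 0.79 ± 0.08 and the growth factor binding protein Igfbp2 lower by -0.79 ± 0.09. Ion and water transport genes split too, with 8 higher and 11 lower of 27. Scnn1g, a subunit of the sodium channel that clears fluid from the air spaces, read 8.41, 8.45, 8.13 and 8.61 after PBS and 9.40, 9.63, 9.63 and 9.56 untreated, a fall of -1.15 ± 0.09 (adjusted p = 5.1e-08). The chloride channel Clcn2 rose by 1.05 ± 0.08, and Cftr, the chloride channel of cystic fibrosis, named after its values were seen, rose by 1.27 ± 0.17.

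Acute phase and inflammatory genes moved in a few members only. Saa3, an acute phase protein made locally in inflamed lung, read 9.82, 9.75, 9.78 and 10.10 after PBS and 7.63, 7.55, 7.99 and 7.92 untreated, a rise of 2.09 ± 0.19 (adjusted p = 2.2e-07). The groups did not overlap, and the rCNT groups lay higher still, at 12.19 and 14.87. Of 22 acute phase genes 4 were higher and none lower, under the 26.3% of all genes that rose, and 18 did not pass; Lcn2, an iron-binding defence protein, was among the 4 at 0.54 ± 0.12, without a call in the Cy3 samples alone (0.45). The list's median of 0.107 turned to -0.12 with centring on the 75th percentile.

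Among chemokines, the secreted proteins that attract leukocytes, 7 of 17 CC members were higher and 3 lower, and 2 of 14 CXC members were higher and 1 lower. Ccl2, which draws monocytes, read 8.35, 8.68, 8.47 and 9.15 after PBS and 7.61, 7.57, 7.84 and 7.63 untreated, a rise of 1.0 ± 0.14. Ccl8, another monocyte attractant, rose by 0.64 ± 0.13 and Ccl9 fell, at -0.53 ± 0.09. Cxcl1, which attracts neutrophils, was well above background in only 2 of 4 untreated samples and rose by 0.74 ± 0.23 (adjusted p = 0.010), but it did not pass with loess (0.50), with centring on the 75th percentile (0.47) or with the Cy3 samples alone (0.60).

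Of 26 inflammatory cytokines and feedback genes, 5 were higher and 1 lower, but 1 was higher and 9 lower with centring on the 75th percentile. Tslp, an epithelial cytokine, rose by 0.69 ± 0.10. Tnf was well above background in 1 of 4 untreated samples and rose by 0.41 ± 0.08, or 0.05 with centring on the 75th percentile. Lif was not well above background in any untreated sample, was at least 1.16-fold higher after PBS (fitted difference 0.36 ± 0.07), turned to -0.07 under that centring, and did not pass with median centring (0.18) or the Cy3 samples alone. Il6 was well above background in 1 sample of each group and gave -0.06 ± 0.17 (adjusted p = 0.78), or -0.49 with a call under that centring. The interferon response list held 6 higher and 7 lower of 28, or 10 higher and 1 lower with median centring.

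**Figure D3:**
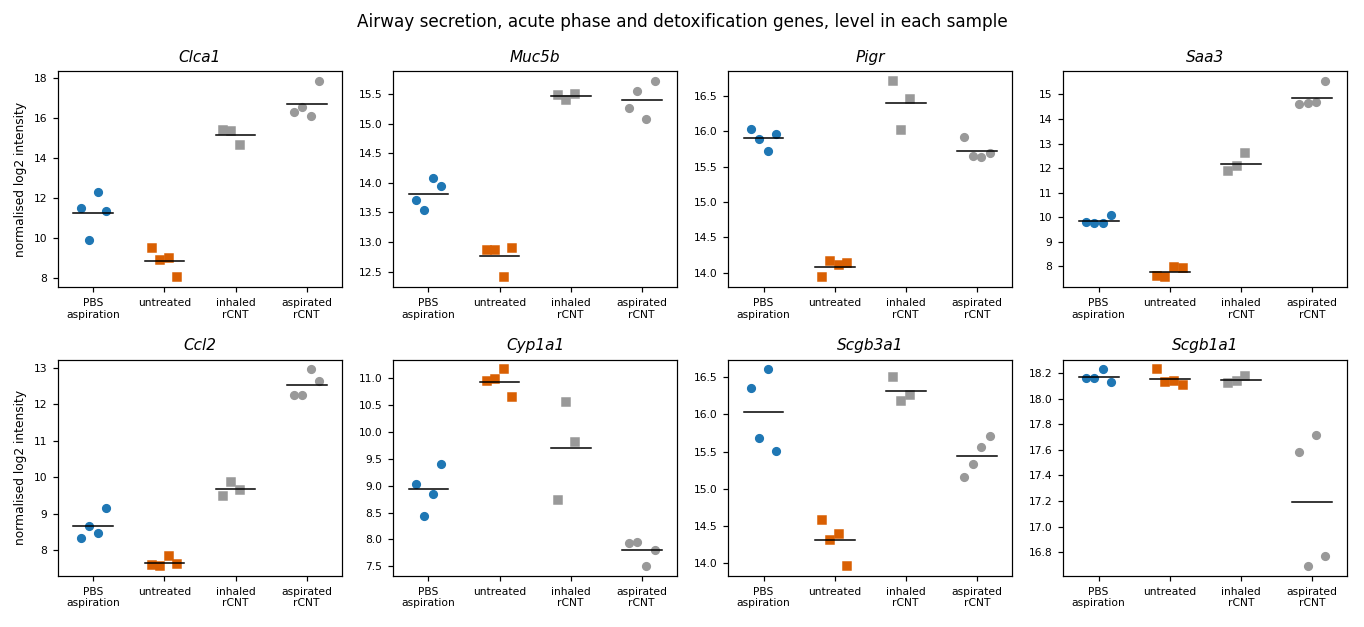
Normalised log2 intensity (y axis) of Clca1, Muc5b, Pigr, Saa3, Ccl2, Cyp1a1, Scgb3a1 and Scgb1a1 in each of the 15 samples, by group (x axis). Circles are samples of slide 1, squares samples of slides 2 and 3, and bars are group means. PBS samples lie above untreated samples for Clca1, Muc5b, Pigr, Saa3, Ccl2 and Scgb3a1 and below them for Cyp1a1, and the groups overlap for Scgb1a1.

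Several genes of protein folding and antioxidant defence were lower after PBS. Of 25 endoplasmic reticulum (ER) stress genes, which are switched on when unfolded proteins gather in that compartment, 12 were lower and 3 higher, with a median of -0.21. Manf, a secreted stress factor, read 10.76, 10.67, 10.63 and 10.94 after PBS and 12.03, 11.52, 11.76 and 11.65 untreated, a fall of -0.99 ± 0.10 (adjusted p = 6e-07). Sdf2l1, an ER chaperone cofactor, fell by 0.94 (SE 0.09), the chaperone Calr by 0.72 (SE 0.07) and Asns, which makes asparagine, by 0.69 (SE 0.08). These 4 genes, which had the smallest p of the list, showed no overlap between groups. In the whole list 9 of 25 members did not overlap, under the 49.3% of all genes tested. The list median stayed below 0 under both other scalings, at -0.07 with median centring.

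The ER stress element, CCAAT and CCACG separated by any 9 bases, on either strand, was searched after the values were seen. It occurred in 37 of 27025 genes (0.137%) and in 20 of 12559 tested genes (0.159%). Among 22 list members with a promoter in the table, 8 held it (36.4%). These shares describe promoters and say nothing of the difference between the groups. Of the 8, Calr and Hspa5 were lower, Canx was higher, and Creld2, Dnajc3, Pdia6, Hsp90b1 and Syvn1 did not pass. Both counts lay under the shares of all genes tested, 33.1% lower and 26.3% higher. Creld2 passed as lower with centring on the 75th percentile (-0.42), with the Cy3 samples alone (-0.42), with array weights (-0.31), without PBS replicate 4 (-0.32) and without untreated replicate 4 (-0.31). Dnajc3 passed as lower with that centring (-0.24) and without untreated replicate 4 (-0.20), and Hsp90b1 with that centring (-0.27). Hspa5, the main ER chaperone, read 14.09, 14.27, 14.03 and 14.76 after PBS and 15.28, 14.87, 15 and 14.48 untreated, a fall of -0.62 ± 0.14 with overlap, which did not pass with the Cy5 samples alone. Canx, a membrane chaperone, rose by 0.45 ± 0.08 with no overlap. The 250 bases before the starts of these 3 genes are shown because they share the element and are the members that passed; capitals mark it, in build GRCm38.p6 and 5′ to 3′ on the gene's strand. Hspa5 covers chr2:34771840-34772089 (plus strand), Calr chr8:84846932-84847181 (minus strand) and Canx chr11:50325674-50325923 (minus strand).
Hspa5: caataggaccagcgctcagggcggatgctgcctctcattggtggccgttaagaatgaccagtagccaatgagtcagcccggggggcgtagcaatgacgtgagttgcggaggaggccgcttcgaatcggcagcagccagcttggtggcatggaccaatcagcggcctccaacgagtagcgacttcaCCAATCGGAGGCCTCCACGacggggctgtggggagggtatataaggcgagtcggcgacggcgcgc
Calr: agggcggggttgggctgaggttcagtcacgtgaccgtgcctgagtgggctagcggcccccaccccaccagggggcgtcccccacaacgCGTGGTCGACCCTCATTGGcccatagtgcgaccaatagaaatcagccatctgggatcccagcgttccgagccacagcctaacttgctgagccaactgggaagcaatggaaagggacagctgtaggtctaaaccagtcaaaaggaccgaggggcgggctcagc
Canx: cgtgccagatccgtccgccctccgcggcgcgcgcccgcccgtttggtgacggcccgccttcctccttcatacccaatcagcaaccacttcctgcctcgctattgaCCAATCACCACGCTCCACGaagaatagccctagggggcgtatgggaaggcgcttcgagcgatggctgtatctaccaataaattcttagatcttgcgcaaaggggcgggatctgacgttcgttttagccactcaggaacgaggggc

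Heat shock genes code for chaperones of the cytosol, mitochondria and ER and their helpers. Of 21 measured, 9 were lower and 3 higher, beside 33.1% and 26.3% of all genes tested. Their median of -0.25 became 0.01 without untreated replicate 1. Stip1, a co-chaperone, was highest in that replicate, at 10.75 against 10.25, 10.33 and 10.17 in the other untreated samples and 9.70 to 9.89 after PBS, and fell by 0.59 (SE 0.10). Of 26 targets of Nrf2, the regulator of antioxidant genes, 13 were lower and 2 higher. Gstp1 and Gclm, which conjugate and make glutathione, fell by 0.48 (SE 0.05) and 0.47 (SE 0.06), while the oxidase Aox1 rose by 0.68 ± 0.07.

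Cyp1a1 had 1 of the largest falls of any gene. This cytochrome P450 is the classic target of the aryl hydrocarbon receptor, which senses aromatic pollutants and related compounds. It read 9.03, 8.45, 8.85 and 9.41 after PBS and 10.96, 10.99, 11.17 and 10.65 untreated, a fall of -2.01 ± 0.27 (adjusted p = 1.1e-05). Means in the rCNT groups were 9.71 with inhaled and 7.79 with aspirated rCNT. The other 26 measured genes of xenobiotic metabolism held 6 that were higher and 6 that were lower.

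Stress hormone targets showed no common direction. Glucocorticoid response genes gave 6 higher and 5 lower of 25. Fkbp5, a sensitive target of the glucocorticoid receptor, ranged from 10.38 to 10.69 after PBS and from 10.43 to 11.12 untreated, and its difference of -0.14 ± 0.13 did not pass (adjusted p = 0.35). Tsc22d3, another target, rose by 0.81 ± 0.25, with overlapping groups and no call with the Cy5 samples alone (0.45). Of 31 immediate early genes, which respond within minutes to many stimuli, 3 were higher and 6 lower, and Fos (-0.08 ± 0.19) and Egr1 (0.11 ± 0.19) did not pass.

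Heart muscle genes were higher after PBS. Of 26 cardiac muscle genes, 20 were higher and 2 lower, with a median of 0.89 and 12 at least 2-fold higher. Myh6, the heavy chain of atrial myosin and of the adult mouse heart, read 15.36, 15.44, 15.49 and 15.24 after PBS and 14.15, 13.55, 11.84 and 13.18 untreated, a rise of 2.20 ± 0.38 (adjusted p = 1.2e-04), with 1.06 on its other probe. Nppa, the atrial natriuretic peptide, read 11.43, 11.47, 11.51 and 10.91 after PBS and 9.63, 9.05, 8.47 and 8.27 untreated, a rise of 2.47 ± 0.42. The contractile genes Tnnt2 (1.77 ± 0.25) and Mybpc3 (1.91 ± 0.31) rose as well, without overlap. Mouse pulmonary veins carry a sleeve of heart muscle, and heart tissue can also stay attached to a dissected lung; the source of these transcripts was not tested.

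The untreated samples were also more spread out in heart genes than the PBS samples. Averaged over the 26 genes, levels were 10.40, 10.45, 10.39 and 10.14 after PBS, 9.86, 9.57, 8.67 and 9.39 untreated, 8.76 to 9.37 with inhaled rCNT and 8.96 to 9.47 with aspirated rCNT. Untreated replicate 3 was the lowest of all 15 samples, and without it 20 genes were still higher, with a median of 0.67. The PBS samples were the highest 4 of the series, above samples of their own slide.

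Fat cell genes were higher in 11 of 18 and lower in none, with a median of 0.54. Adipoq, the fat cell hormone adiponectin, read 8.37, 8.63, 8.48 and 8.14 after PBS and 7.78, 7.31, 7.88 and 7.46 untreated, a rise of 0.80 ± 0.17 (adjusted p = 0.0010). Retn, which encodes resistin, rose by 1.24 ± 0.14, and its 4 PBS values (8.96 to 9.66) lay above its untreated values (7.92 to 8.22). With inhaled and aspirated rCNT, Retn averaged 8.97 and 9.13, near the PBS samples, and Adipoq 6.75 and 7.62. Averaged over the list, levels were 10.30 to 10.60 after PBS and 9.90 to 10.12 untreated. They were 9.68 to 10.14 with inhaled and 9.99 to 10.18 with aspirated rCNT, so Retn differed from the list in these groups.

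Mesothelial genes, which mark the cells of the pleural surface, went the other way. Of 13 measured, 9 were lower and 1 higher, with a median of -0.46. Lrrn4 read 7.97, 8.10, 8.17 and 8.31 after PBS and 9.32, 9.21, 9.36 and 9.27 untreated, a fall of -1.15 ± 0.08 (adjusted p = 1.1e-08). The urothelial and mesothelial membrane protein Upk3b fell by 0.64 (SE 0.10), and the exception was Rspo1, a Wnt pathway agonist, at 0.90 ± 0.08. List means were 10.27 to 10.48 after PBS and 10.74 to 10.80 untreated, with 10.32 to 10.46 for inhaled rCNT on the untreated samples' slides.

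**Figure D4:**
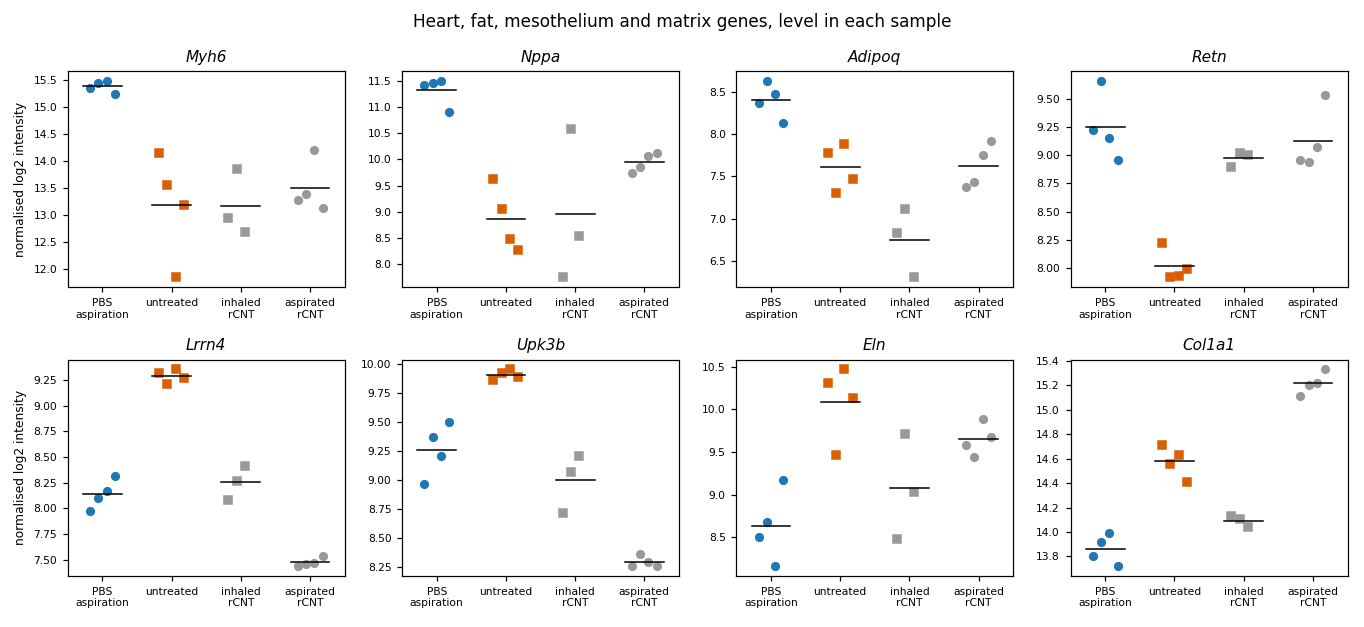
Normalised log2 intensity (y axis) of the heart genes Myh6 and Nppa, the fat genes Adipoq and Retn, the mesothelial genes Lrrn4 and Upk3b and the matrix genes Eln and Col1a1 in each of the 15 samples, by group (x axis). Circles are samples of slide 1, squares samples of slides 2 and 3, and bars are group means. PBS samples lie above untreated samples in the heart and fat genes and below them in the other 4.

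Fibroblast and matrix genes were lower in 16 of 34 and higher in 5, with a median of -0.20. Eln, the elastic fibre protein that lets lung recoil, read 8.51, 8.68, 8.16 and 9.17 after PBS and 10.31, 9.46, 10.47 and 10.13 untreated, a fall of -1.46 ± 0.23 (adjusted p = 6.4e-05). Col1a1, a chain of fibrillar collagen, fell by 0.72 (SE 0.08), and Mfap4, a protein of elastic fibres, fell by 0.64 (SE 0.09). Collagen chain genes as a list had no common direction. Of 33 measured, 9 were higher and 7 lower, with a median of 0.014 and 2 at least 2-fold higher. Endothelial genes were lower in 14 of 30 and higher in 3, with the vessel transcription factor Sox18 at -0.75 ± 0.08 and the fenestral protein Plvap at -0.60 ± 0.08, but another vessel factor, Erg, at 1.0 ± 0.10. Smooth muscle and pericyte genes were lower in 6 of 20 and higher in 4, both under the shares of all genes tested (33.1% and 26.3%).

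Blood genes were lower or did not pass. Of 21 erythroid and platelet genes, 12 were lower and none higher, with a median of -0.34. Hbb-b1, a beta globin chain, overlapped between the groups (13.44 to 14.26 after PBS and 13.14 to 14.28 untreated, adjusted p = 0.85). Ppbp, a platelet chemokine, read 8.73, 9.12, 9.17 and 9.01 after PBS and 9.69, 9.92, 9.80 and 10.07 untreated, a fall of -0.86 ± 0.12.

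Neutrophil genes showed no common direction. S100a8 and S100a9, the abundant calcium-binding proteins of neutrophils, differed by -0.03 ± 0.26 and -0.02 ± 0.26 (adjusted p = 0.94 and 0.95). S100a8 ranged from 11.75 to 12.51 after PBS and from 11.78 to 12.67 untreated, so the groups overlapped throughout. Of 22 neutrophil genes 4 were higher and 3 lower. Ltf, lactoferrin, which airway glands also make, rose by 1.29 ± 0.12, and Elane, neutrophil elastase, fell, at -1.17 ± 0.07. Elane averaged 9.535 after PBS and 9.459 with aspirated rCNT, against 10.71 untreated and 10.67 with inhaled rCNT. Its levels thus grouped by slide, and so also by route of exposure.

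Macrophage and mast cell genes gave a mixed picture. Alveolar macrophage genes were higher in 9 of 26 and lower in 5, beside 26.3% and 33.1% of all genes tested. Retnla, a secreted product of alternatively activated macrophages and airway cells, read 13.69, 15.12, 13.98 and 15.27 after PBS and 13.44, 14.32, 13.67 and 13.54 untreated, and its difference of 0.77 ± 0.31 just passed (adjusted p = 0.040) with overlap. It did not pass without PBS replicate 2 (0.60) or 4 (0.55) or untreated replicate 1 (0.71), 3 (0.70) or 4 (0.75). Arg1, arginase, gave 0.32 ± 0.12 (adjusted p = 0.034) and lost its call without any 1 of 6 samples, namely PBS replicates 2 to 4 and untreated replicates 1, 2 and 4. Cd300lf, an inhibitory receptor of myeloid and mast cells, read 11.13, 11.13, 11.12 and 11.11 after PBS and 9.15, 9.08, 8.97 and 9.14 untreated, a rise of 2.04 ± 0.07 (adjusted p = 3.4e-12), and its other 2 probes gave 1.95 and 2.19. The mast cell tryptase Tpsb2 rose by 1.69 ± 0.20 on 1 probe and gave 0.12 on the other. Eosinophil and mast cell genes were higher in 7 of 18 and lower in 2, and their median turned from 0.17 to -0.15 with centring on the 75th percentile.

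Lymphocyte genes varied as much among the untreated samples as between the groups. Averaged over 23 B cell genes, levels were 9.29 to 9.81 after PBS and 9.42, 9.81, 8.93 and 10.15 untreated, with untreated replicate 3 lowest and replicate 4 highest. The B cell list had 4 higher and none lower, but 2 higher and 7 lower without untreated replicate 3, and Cd79a, part of the B cell receptor, overlapped (-0.18 ± 0.16, adjusted p = 0.33) but passed as lower without that sample (-0.37). The T cell list had 3 higher and 4 lower of 28, but 2 higher and 11 lower without that sample. Cd4, the helper T cell co-receptor, read 11.01, 11.10, 10.85 and 11.02 after PBS and 11.54, 11.69, 11.72 and 11.78 untreated, a fall of -0.68 ± 0.06, with -0.11 on its other probe, and Cd3e of the T cell receptor complex fell by 0.55 (SE 0.12), without a call in the Cy5 samples alone (-0.33). Cd4 averaged 12.02 with inhaled and 11.04 with aspirated rCNT, so its levels grouped by slide, and so also by route of exposure.

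Genes of natural killer (NK) and cytotoxic cells were lower in 11 of 23 and higher in 3, with a median of -0.26. The member with the smallest p and the largest difference, Klra1, went against most of the list. It rose by 1.84 ± 0.23, with no overlap. Gzmb, a killing protease, read 7.69, 7.92, 7.75 and 7.83 after PBS and 8.58, 8.68, 8.19 and 8.90 untreated, a fall of -0.79 ± 0.12. Prf1, which forms pores in target cells, fell by 0.65 (SE 0.12) and Nkg7, a granule protein, by 0.73 (SE 0.14), while Gzma overlapped (-0.26 ± 0.21, adjusted p = 0.29). Without untreated replicate 4, 10 were lower and the median was -0.07. Genes that present antigen on MHC class II were lower in 6 of 14 and higher in 2. Dendritic cell genes were higher in 7 of 23 and lower in 4. Of all genes tested, 33.1% were lower and 26.3% higher.

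Cell cycle genes had no common direction, with 8 higher and 8 lower of 37, but 12 and 2 with median centring. Mki67, a marker of dividing cells, read 9.93, 9.91, 9.97 and 10.25 after PBS and 9.54, 9.18, 9.34 and 9.16 untreated, a rise of 0.71 ± 0.10 (adjusted p = 1.3e-05). Ribosomal protein genes were lower in 35 of 80 and higher in 12, with a median of -0.13, and genes of oxidative phosphorylation were lower in 28 of 90 and higher in 24. These 2 lists followed the scaling: 70 and 58 of them were lower with centring on the 75th percentile, and 39 and 15 with median centring. Odorant and pheromone receptor genes, which are best known from the nose, were read near the bottom of the scale (list means 6.82 to 7.05). Only 145 of the 2073 listed were measured. They were lower in 71 of 145 and higher in 23. For the ribosomal, oxidative phosphorylation and receptor lists alike, the shares of all genes tested were 33.1% lower and 26.3% higher.

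**Figure D5:**
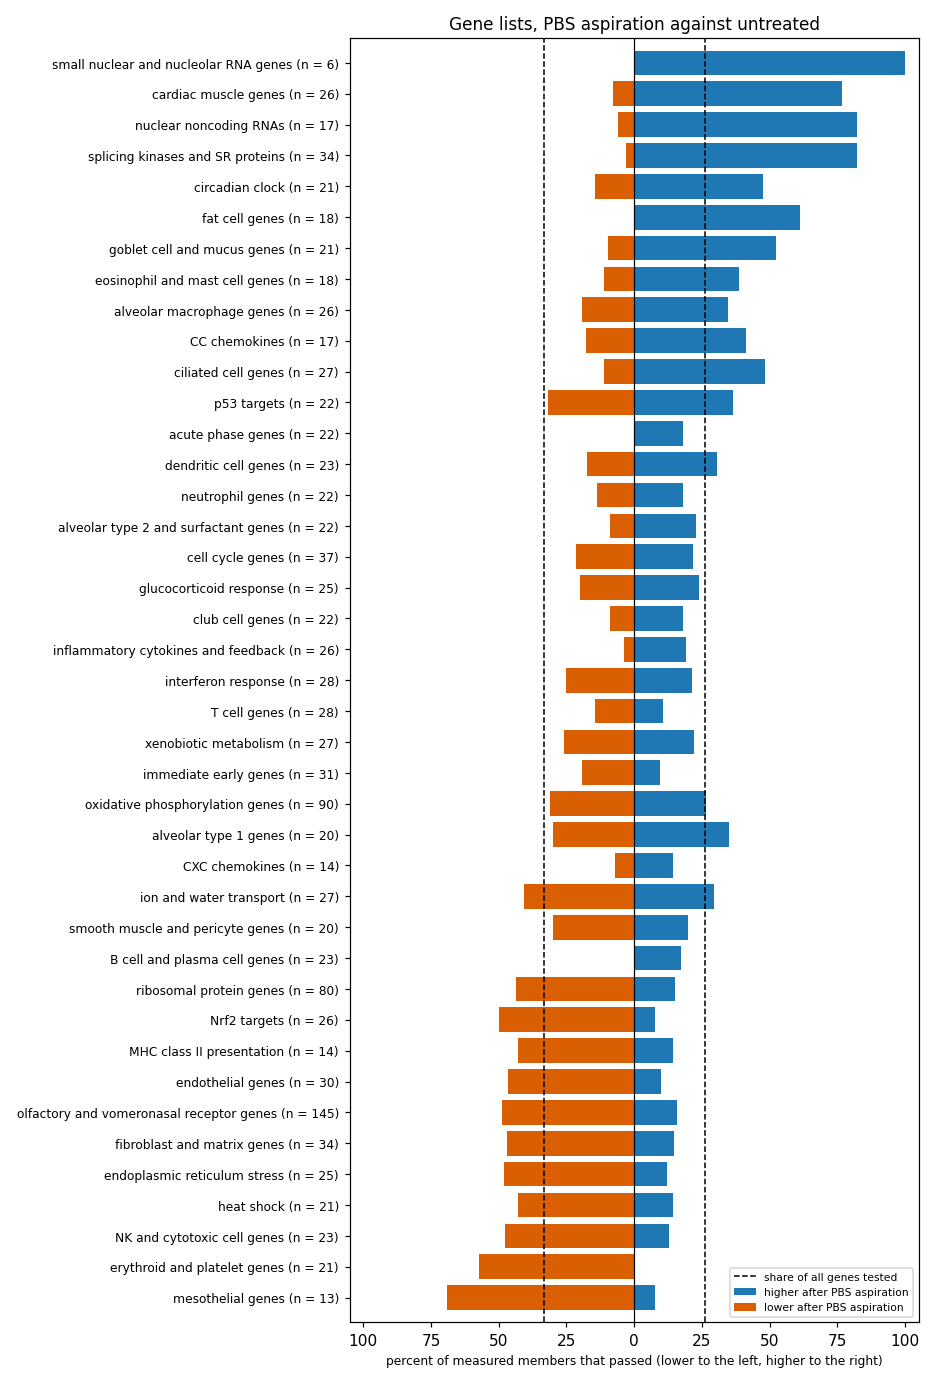
Percent of the measured members of 41 gene lists (y axis, number measured in brackets) that passed an adjusted p of 0.05 (x axis), lower in PBS samples to the left and higher to the right, sorted by the median difference. Dashed lines mark the share of all 25251 genes tested that were lower (33.1%) and higher (26.3%). Small nuclear RNA, nuclear RNA, splicing and cardiac lists reach farthest to the right, and mesothelial and blood lists farthest to the left.

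Among single genes outside these lists, the largest rises after Neat1 were read by probes named for Rhox8, Gcm1 and Dcc, genes best known from the reproductive tract, the placenta and guidance of nerve fibres. Gcm1 read 16.06, 15.98, 15.98 and 16.02 after PBS and 12.93, 12.89 and 13.05 in untreated replicates 1, 2 and 4, with the spot of replicate 3 left out, a rise of 3.08 ± 0.14; its other probes gave 1.34 and 2.39. Dcc rose by 2.92 ± 0.16 and Rhox8 by 3.30 ± 0.23, but the other Rhox8 probe gave -1.13, so the direction for Rhox8 depended on the probe. In these 3 genes both rCNT groups averaged 15.68 to 16.09, at the level of the PBS samples. Lgals4, a galectin of epithelia, rose by 2.52 ± 0.09, with 2.62 and 2.31 on its other probes, and E4f1, a regulator of p53 and the cell cycle, by 2.41 ± 0.10, with 1.90 on its other probe.

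Some of the largest falls had levels that grouped the samples by slide, and so also by route of exposure. Tox4, a chromatin protein, fell from 10.59, 10.33, 10.96 and 10.51 untreated to 8.29, 8.23, 8.21 and 8.94 after PBS (-2.18 ± 0.22), but its other probe gave -0.10. Capn11, a protease of the testis, read 9.37, 9.88, 9.23 and 9.64 after PBS and 13.27, 10.93, 11.21 and 11.40 untreated, a fall of -2.17 ± 0.35 (adjusted p = 7e-05). Its mean was 11.43 in inhaled rCNT samples, on the slides of the untreated samples, and 9.70 in aspirated rCNT samples, on the slide of the PBS samples. Krtap19-5, a hair keratin-associated protein, fell by 2.03 (SE 0.31), with -1.24 on its other probe and group means of 8.47 after PBS, 10.50 untreated, 10.52 with inhaled and 8.47 with aspirated rCNT. Zfp790, a zinc finger gene, gave 9.93 with inhaled and 8.30 with aspirated rCNT beside a fall of -1.38 ± 0.10, but its other probe gave -0.22. In Capn11, Krtap19-5 and Zfp790 the inhaled rCNT samples lay near the untreated samples and the aspirated rCNT samples near the PBS samples. Most of the other largest falls had group means in a like order. For Dvl3 they were 11.09 after PBS, 12.45 untreated, 13.3 with inhaled and 11.1 with aspirated rCNT. Cyp1a1, Eln and Slc6a20a did not have this order. Slide and route of exposure cannot be told apart. Gm11559 fell by 1.53 (SE 0.51) mainly through untreated replicate 3, at 11.88 against 9.42 to 9.51 in the other untreated samples, and by 0.85 without it.

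Most list counts without untreated replicate 1, whose title named a PBS aspiration, stayed close to those above. They were 14 higher and 1 lower for nuclear RNAs, 28 and 1 for splicing genes, 8 and 3 for the clock, 11 and 1 for goblet cell and mucus genes, 3 and 10 for ER stress, 21 and 1 for heart, 11 and 0 for fat, and 1 and 10 for mesothelium. Heat shock genes had 4 higher and 7 lower without it, and their median changed sign, from -0.25 to 0.01. The ER stress median moved from -0.21 to -0.11. For Neat1 untreated replicate 1, at 11.91, lay with the other untreated samples and below the lowest PBS sample, at 15.38.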

How the data were processed

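RNA from mouse lung was hybridised to 2-colour Agilent arrays, with a different sample in each colour. The authors deposited scanner files holding each spot's median intensity on a linear scale and its background, read with Agilent Feature Extraction 11.0.1.1 per the file headers. They also deposited a table taken here as log2 values (column medians 6.576 to 6.592), which correlated with the own channel at 0.9992 to 0.9995; its centring and scale are not given in the sources used here. Each sample's own channel was corrected with normexp (offset 50), taken to log2 and quantile normalised over 15 samples. Probes were kept where at least 3 samples of any group rose well above background (34271 of 55681), and the brightest probe stood for a gene, which left 25251 genes and transcripts. Control spots and outlier flags were left out. Symbols came from the arrays' accessions through RefSeq, with 27656 of 29123 probes matched.

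PBS minus untreated was fitted with limma 3.58.1 (R 4.3.3, Python 3.11.15) over the 4 groups with dye as covariate, adjusted by Benjamini-Hochberg over all genes at 0.05. A gene list is described by its counts and median. The members and lists were chosen with earlier results of these data known. Genes named are the 14 largest rises and falls without overlap, measured above background by at least 3 samples in both groups, the 4 members of each list with the smallest p, and genes chosen by name; others are said to be named after their values were seen. Not every gene meeting this rule is described. Promoters are RefSeq's, GRCm38.p6. The replicate numbers did not pair the samples. The number of arrays limits the precision.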

Additional observations from a re-analysis of the deposited data

Results flagged for a closer look

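Among 241 groups of 4 samples examined for the named genes, 15 held a sample that stood far from the other 3 by Dixon's test, which chance alone passes in about 1 in 20 groups. In untreated replicate 3, the low values were Cry2 at 11.43, Muc5b at 12.4, Cyp2a4 at 10.18 and Clcn2 at 7.056, and the high value was Gm11559 at 11.88. In untreated replicate 1, Muc4 (10.32) and Lgals4 (7.915) were high. Among PBS samples, replicate 4 was high for Sdf2l1 (9.205), Tox4 (8.938) and Gm11559 (8.682) and low for Nppa (10.91). Replicate 3 was high for Bpifa1 (14.23) and low for Rhox8 (15.97) and E4f1 (11.62), and replicate 2 was low for Ccnl2 (12.7).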

How the results depend on the processing

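Over 25 alternatives, the count of genes that differed ranged from 10396 with the Cy5 samples alone to 16530 with centring on the 75th percentile, against 15007, and from 13871 to 14428 when 1 sample was left out. The count of genes that differ by 2-fold or more, 913, became 2774 with the scanner software's processed intensity; the cause was not tested. With the replicate number as a block (a replicate block), 14566 genes differed, although same-numbered samples correlated at -0.14, -0.0665, 0.143 and -0.126; Per1 then passed and Retnla did not. With slide as a random block 13540 differed, and the array as a random block could not be fitted. The direction turned, for causes not tested, in the heat shock median (0.0114 without untreated replicate 1, in a range of -0.279 to 0.0114 over fits without 1 sample), the acute phase (-0.12) and eosinophil and mast cell (-0.15) medians, Sftpc (-0.43) and Lif (-0.0661) with centring on the 75th percentile, and the p53 target median (-0.00298 with the Cy5 samples alone). Of 121 genes named, 83 passed under every alternative that gave a value, and 5 (Rnu12, Hlf, Ciart, Retnla and Arg1) lost their call without 1 sample. Slide and kind of control cannot be separated by any of these.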
